A study of Mus musculus with 8 samples.

Results

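The genes described here are transcription factors that set the balance between memory and effector states of CD8+ T cells: *Tcf7*, *Lef1*, *Myb*, *Bcl6*, *Id3*, *Id2*, *Eomes*, *Tbx21*, *Tox* and *Prdm1*. They were taken by symbol from the annotation of the array. Of the 10 genes, 9 are named there by 18 probe sets, each a group of short probes against 1 transcript, out of 18193 genes that could be named. *Tcf7* is named by no probe set, so no value is given for it. A gene with several probe sets is described by the one with the highest mean over the 8 arrays, and the others are reported beside it.

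The T cells were CD3+CD8+CD44+CD62L-, a phenotype of antigen-experienced cells, and were sorted by flow cytometry from 2 tissues of C57BL/6 female mice, 6 to 8 weeks old, carrying MC38 tumors under the skin of the flank. MC38 is a mouse colon carcinoma line. The 4 groups, of 2 Affymetrix mouse expression arrays each, were tumor T cells after 5 Gy of whole-body irradiation (IR) given 5 h before sacrifice, tumor T cells without IR, lymph node (LN) T cells after the same IR, and LN T cells without IR. Each array held RNA of cells pooled from 4 mice, tumors were digested with enzymes while LN were disrupted mechanically, and the pool of LN included draining and non-draining nodes. The mice of an experiment gave both tissues, and the labels do not say which arrays share an experiment. Values are log2 intensities as deposited, and their spread over 2 pools may include technical spread.

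CD8+ T cells that respond to antigen move along a path on which a few factors oppose each other. TCF-1 (the product of *Tcf7*), LEF1, MYB, BCL6 and ID3 are known for keeping cells in a memory-like, self-renewing state, and T-bet (the product of *Tbx21*), ID2 and BLIMP1 (the product of *Prdm1*) for driving effector differentiation. EOMES is known for the upkeep of memory cells but also has roles in effector and exhausted cells. TOX is known for maintaining T cells under chronic stimulation, as in tumors. These are roles established in mice and are background to the values below.

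The sort was checked on *Cd8a* and *Cd3e*, chains of the CD8 coreceptor and of the T cell receptor complex, whose tumor minus LN differences without IR were 0.07 and 0.05, and on *Cd44*, at 0.42. None of the 3 passed the test in any of the 4 pairwise comparisons. The response to IR was checked on the p53 targets *Phlda3*, *Cdkn1a* and *Mdm2*. For *Phlda3* the log2 fold change of IR over no IR was 2.29 in tumor T cells and 4.12 in LN T cells, both past the test. *Cdkn1a* (3.84) and *Mdm2* (1.72) passed in LN T cells. In tumor T cells *Cdkn1a* (1.95, adjusted p = 0.138) and *Mdm2* (0.91, adjusted p = 0.216) did not pass. Replicate arrays correlated at 0.992 and 0.993 in the tumor groups and at 0.966 in LN with IR and 0.982 in LN without IR. The SD of the difference between the 2 arrays was 0.27 in each tumor group, 0.57 in LN with IR and 0.42 in LN without IR, so LN T cells with IR were the least reproducible group. The lower quartile of an array lay between 5.38 and 5.59, and a lower level than that cannot be told from background here.

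A gene is said to have risen or fallen where 2 limits were met: a Benjamini-Hochberg adjusted p below 0.1 in limma's moderated test, and a log2 fold change of 1 or more in either direction. In tumor against LN T cells without IR, 4 of the 9 factors fell and 0 rose by this rule, against 5.54% of all genes called in that comparison, 4.5% higher and 1.04% lower. With IR, 3 fell and 2 rose, against 6.8% of all genes called, 4.8% higher and 2% lower. The arrays of tumor and LN did not overlap for 9 of the 9 factors with IR and for 7 without, against 50.1% and 56.5% of all genes. *Lef1*, *Myb* and *Eomes* fell in both comparisons, *Id3* in the one without IR, and *Tbx21* and *Tox* rose in the one with IR. The 2 comparisons take their means from different arrays, but the spread of a gene was estimated from all 8 arrays, so the tests are not independent.

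**Figure D1:**
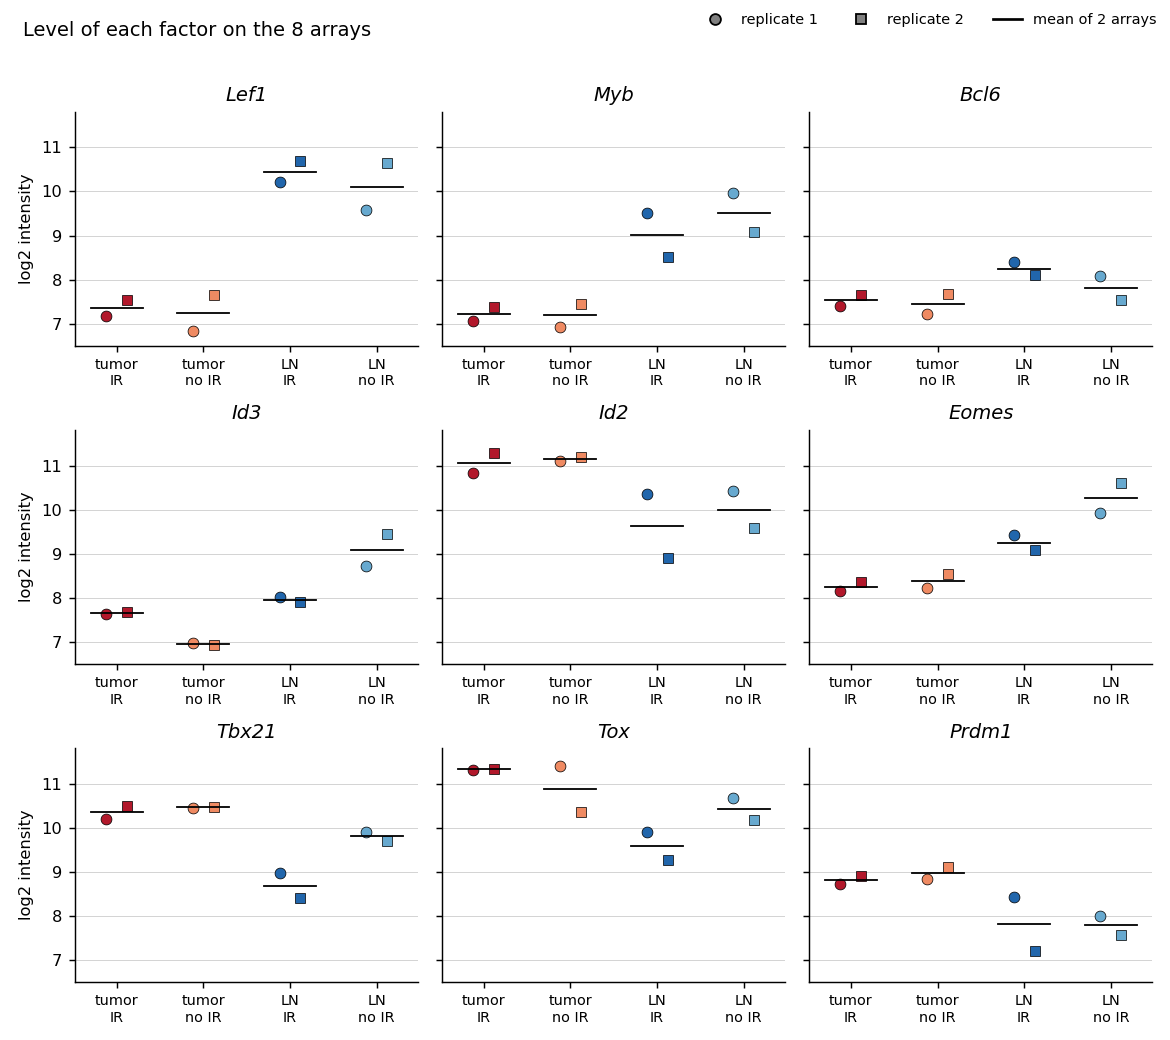
Log2 intensity of the brightest probe set of each of the 9 factors (vertical axis) on the 2 arrays of each group (horizontal axis: tumor IR, tumor no IR, LN IR, LN no IR), with a bar at the mean. All 4 tumor arrays lie below all 4 LN arrays for *Lef1*, *Myb*, *Id3* and *Eomes*, and above them for *Id2*, *Tbx21* and *Prdm1*, where 17.7% of all genes do not overlap.

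The promoters of the 4 factors that were lower in tumor T cells on the average of both treatments are shown because those genes moved the same way, as the 250 bases before the annotated start, from RefSeq on GRCm38.p6, 5′ to 3′ on the strand of the gene. Capitals mark the letters that matched one of 7 motifs searched on both strands: TCAAAG (TCF/LEF), CAGCTG and CAGGTG (E-boxes, the sites of the E proteins that ID proteins inhibit), GGTGTGA (T-box), TAACNG (MYB), GTGAAAG (BLIMP1) and TTCNNNGAA (BCL6). The letters of CAGGTG and GGTGTGA can overlap, although they did not in these windows.
*Lef1*, chr3:131110047-131110296, plus strand: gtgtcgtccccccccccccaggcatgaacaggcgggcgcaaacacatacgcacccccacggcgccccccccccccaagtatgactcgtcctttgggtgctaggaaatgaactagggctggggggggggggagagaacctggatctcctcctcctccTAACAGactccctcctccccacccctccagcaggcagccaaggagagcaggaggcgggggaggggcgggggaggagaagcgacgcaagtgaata
*Myb*, chr10:21160985-21161234, minus strand: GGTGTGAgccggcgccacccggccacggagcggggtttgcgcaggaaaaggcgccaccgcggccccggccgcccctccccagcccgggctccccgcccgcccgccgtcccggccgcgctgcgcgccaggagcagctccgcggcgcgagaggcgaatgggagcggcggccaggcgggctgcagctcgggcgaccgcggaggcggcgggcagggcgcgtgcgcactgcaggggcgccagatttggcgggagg
*Id3*, chr4:136143572-136143821, plus strand: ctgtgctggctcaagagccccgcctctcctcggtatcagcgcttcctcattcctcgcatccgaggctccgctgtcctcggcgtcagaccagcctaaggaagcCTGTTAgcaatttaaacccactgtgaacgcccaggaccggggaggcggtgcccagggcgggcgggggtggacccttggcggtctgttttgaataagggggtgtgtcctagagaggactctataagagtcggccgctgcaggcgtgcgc
*Eomes*, chr9:118477939-118478188, plus strand: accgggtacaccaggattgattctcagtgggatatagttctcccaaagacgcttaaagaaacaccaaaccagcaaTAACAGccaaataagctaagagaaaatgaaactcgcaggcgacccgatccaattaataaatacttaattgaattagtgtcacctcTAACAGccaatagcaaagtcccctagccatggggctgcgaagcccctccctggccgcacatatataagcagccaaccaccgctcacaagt

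The MYB letters TAACNG matched in the windows of *Lef1*, *Id3* and *Eomes*, with 2 matches in *Eomes*, and in 19.8% of the windows of all 27025 genes of the same length. The T-box letters matched at the far end of the *Myb* window, 250 to 244 bases before the start, and in 3.31% of all windows. Windows at the annotated start were also read for *Bcl6*, *Id2* and *Tbx21*: these held 1 match each, to the BCL6 letters (7.14% of all windows), to CAGCTG (12.7%) and to CAGGTG (17.1%). TCAAAG, found in 14.1% of all windows, and GTGAAAG, found in 3.64%, matched in none of the 7. The windows differed in base composition, with a GC content of 81.2% for *Myb*, 66.4% for *Lef1*, 62.8% for *Id3* and 46.4% for *Eomes*, against a median of 52% over all genes. A match is a run of letters and was not tested for binding.

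*Lef1*, which encodes a partner of β-catenin and a relative of TCF-1, was the factor with the largest difference between the tissues. Its log2 level was 7.18 and 7.54 in tumor T cells with IR and 6.82 and 7.64 in tumor T cells without IR, against 10.21 and 10.68 in LN T cells with IR and 9.57 and 10.64 in LN T cells without IR. Every tumor array lay below every LN array, and within each tissue the arrays with and without IR overlapped. *Lef1* fell by 2.87 without IR (SE 0.41, adjusted p = 0.00905, 7.33-fold lower) and fell by 3.09 with IR (SE 0.41, adjusted p = 0.00645, 8.50-fold lower). In the list of all 18193 genes ordered from the most negative difference it stood at place 19 without IR and at place 18 with IR.

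The other *Lef1* probe set gave a still larger difference. It read 6.24 and 6.58 in tumor T cells with IR and 6.59 and 7.79 in tumor T cells without IR, against 10.54 and 11.05 in LN T cells with IR and 9.76 and 11.15 in LN T cells without IR. It fell by 3.26 without IR (adjusted p = 0.0152) and fell by 4.39 with IR (adjusted p = 0.00447). The fall of *Lef1* held in both comparisons in each of the 22 alternatives run, among them the mean of its probe sets and the more variable one.

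*Myb* encodes a DNA-binding factor of lymphoid progenitors and memory-like T cells. Its level was 7.06 and 7.37 in tumor T cells with IR and 6.92 and 7.45 without, against 9.51 and 8.50 in LN T cells with IR and 9.96 and 9.07 without. The tumor arrays were all lower, and in both LN groups replicate 1 was the higher array, by 1.01 with IR and 0.89 without. *Myb* fell by 2.33 without IR (SE 0.41, adjusted p = 0.0210) and fell by 1.79 with IR (SE 0.41, adjusted p = 0.0447). This probe set carries the array maker's mark for probes that may also match other sequences.

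The other 2 *Myb* probe sets do not carry that mark, and both gave larger falls. The first read 5.69 and 5.73 in tumor T cells with IR and 5.44 and 5.52 without, against 8.49 and 6.90 in LN T cells with IR and 9.06 and 8.09 without, with differences of -3.09 without IR and -1.98 with IR, both past the test, although 1 of its tumor values without IR lay just under the lower quartile of its array, so the size without IR is not exact. The dimmer one fell by 3.54 without IR and fell by 2.87 with IR, and its tumor values, from 4.33 to 4.80, lay under the lower quartile, so the size of its fall has no exact value. The call of the brightest probe set rests on few arrays. It was lost without IR when tumor no IR replicate 1 was left out (-2.06, adjusted p = 0.159) and with IR when either tumor IR array was left out (-1.63, adjusted p = 0.225 without replicate 1, and -1.94, adjusted p = 0.190 without replicate 2), or when only the 4 arrays compared were fitted (adjusted p = 0.103).

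BCL6 and BLIMP1 are repressors that oppose each other in lymphocytes. *Bcl6* read 7.39 and 7.66 in tumor T cells with IR and 7.22 and 7.68 without, against 8.39 and 8.10 in LN T cells with IR and 8.09 and 7.55 without. Its tumor and LN arrays did not overlap with IR and did without IR. The differences, -0.72 with IR (95% interval -1.31 to -0.13, adjusted p = 0.133) and -0.37 without (-0.95 to 0.22, adjusted p = 0.524), did not pass. The second *Bcl6* probe set had -0.07 with IR and -0.75 without, and in LN T cells with IR its 2 arrays differed by more than the groups did, at 8.31 and 6.71.

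*Prdm1* was on the other side. It read 8.71 and 8.91 in tumor T cells with IR and 8.83 and 9.10 without, against 8.43 and 7.20 in LN T cells with IR and 7.99 and 7.57 without. Every tumor array was higher than every LN array, but the 2 LN arrays with IR were far apart, replicate 2 being the lowest of all 8. Neither comparison passed: the difference was 1.00 with IR (SE 0.38, 95% interval 0.11 to 1.89, adjusted p = 0.165) and 1.19 without (SE 0.38, interval 0.30 to 2.08, adjusted p = 0.152). Without LN IR replicate 1 both comparisons passed, at 1.61 with IR (adjusted p = 0.00539) and 1.19 without (adjusted p = 0.0126), the second through a smaller estimate of the spread alone. The comparison without IR passed likewise without LN IR replicate 2 (adjusted p = 0.0126). It passed in 8 of the 22 alternatives in all, among them the robust fit (adjusted p = 0.0154), only the 4 arrays compared, array weights, cyclic loess and scaling to T cell identity genes, and the one with IR passed in 2, the other being that scaling (1.13, adjusted p = 0.0690).

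ID proteins lack a DNA-binding domain and hold E proteins away from DNA, ID3 in memory precursors and ID2 in effector cells. *Id3*, measured by 1 probe set, read 7.62 and 7.66 in tumor T cells with IR and 6.97 and 6.91 without, against 8.01 and 7.90 in LN T cells with IR and 8.72 and 9.45 without. The order of its groups was LN without IR, LN with IR, tumor with IR and tumor without IR, and no 2 of them overlapped. *Id3* fell by 2.14 in tumor T cells without IR (SE 0.23, adjusted p = 0.00322, 4.42-fold lower). With IR the tumor minus LN difference was -0.31 (SE 0.23, 95% interval -0.87 to 0.24, adjusted p = 0.484) and did not pass.

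*Id2* read 10.83 and 11.29 in tumor T cells with IR and 11.11 and 11.19 without, against 10.35 and 8.89 in LN T cells with IR and 10.42 and 9.58 without. All tumor arrays were higher, and the gap of 1.46 between the LN arrays with IR was the widest between replicates of any factor's brightest probe set. The differences of 1.44 with IR (SE 0.48, adjusted p = 0.122) and 1.15 without (SE 0.48, adjusted p = 0.279) did not pass. Leaving out LN IR replicate 1 made both pass (2.17 with IR, adjusted p = 0.00827, and 1.15 without, adjusted p = 0.0608), and leaving out LN IR replicate 2 made the one without IR pass (adjusted p = 0.0608). The difference with IR passed in 5 of the 22 alternatives, among them the robust fit (adjusted p = 0.0463), cyclic loess and scaling to T cell identity genes, and the one without IR in 4, among them array weights and that scaling.

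Of the other *Id2* probe sets, one had 0.45 with IR and 0.78 without, with tumor arrays above LN arrays in both. The third had -0.21 with IR and -0.06 without, with overlapping groups, so the 3 probe sets of *Id2* did not share a direction. The plot of all 18 probe sets shows that *Lef1*, *Myb*, *Bcl6*, *Eomes* and *Tox* had 1 direction over their probe sets in both comparisons.

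**Figure D2:**
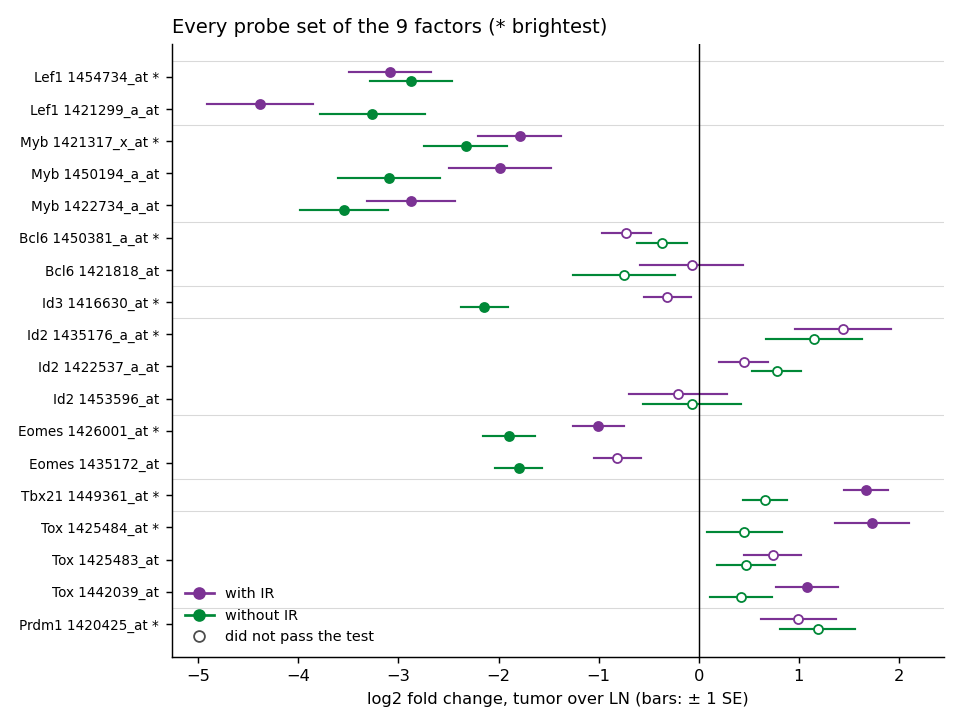
Log2 fold change of tumor over LN T cells (horizontal axis) for each of the 18 probe sets (vertical axis, the brightest of a gene starred), with IR in purple and without IR in green, with bars of 1 SE either side. Filled points passed the test. The 2 probe sets of *Lef1* and the 3 of *Myb* were lower in tumor with filled points in both comparisons, and the third probe set of *Id2* lay at -0.21 with IR and -0.06 without.

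The T-box pair EOMES and T-bet share a DNA-binding domain. The tumor minus LN differences of their genes had opposite signs, while for IR in LN T cells both differences were negative. *Eomes* read 8.15 and 8.34 in tumor T cells with IR and 8.21 and 8.53 without, against 9.42 and 9.07 in LN T cells with IR and 9.93 and 10.60 without. The tumor groups overlapped each other and lay below both LN groups, which did not overlap. *Eomes* fell by 1.89 without IR (SE 0.26, adjusted p = 0.00760, 3.72-fold lower) and fell by 1.00 with IR (SE 0.26, adjusted p = 0.0608), at the edge of the fold limit. With IR the second probe set had -0.81 (adjusted p = 0.0845), under that limit.

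The *Eomes* call with IR was lost when any of 5 arrays was left out: tumor IR replicate 1 (-0.90, adjusted p = 0.278), tumor IR replicate 2 (-1.10, adjusted p = 0.229), either tumor no IR array (adjusted p = 0.110 each, with the difference as before) or LN IR replicate 1 (-0.83, under the fold limit). It was also lost with array weights (adjusted p = 0.120), at an adjusted p under 0.05, with the mean of both probe sets (-0.91) and when arrays were scaled to the T cell identity list (-0.87), and so was kept in 13 of the 22 alternatives. Without IR the call held in each of the 22 alternatives, as did that of *Id3*.

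*Tbx21* read 10.20 and 10.50 in tumor T cells with IR and 10.44 and 10.47 without, against 8.96 and 8.40 in LN T cells with IR and 9.90 and 9.70 without. The tumor groups overlapped and were the higher ones, and LN T cells with IR were the lowest group. *Tbx21* rose by 1.67 in tumor T cells with IR (SE 0.22, adjusted p = 0.00628, 3.18-fold higher), a call held in each of the 22 alternatives. Some of these could not lose it: dropping the fold limit can only add calls, and *Tbx21* has 1 probe set to choose from. Without IR the difference of *Tbx21* was 0.66 (SE 0.22, 95% interval 0.14 to 1.18, adjusted p = 0.170).

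*Tox* encodes an HMG-box protein. It read 11.30 and 11.34 in tumor T cells with IR and 11.39 and 10.35 without, against 9.91 and 9.27 in LN T cells with IR and 10.67 and 10.16 without. In tumor T cells without IR the second array was 1.04 lower than the first and fell among the LN arrays without IR, while with IR the tumor arrays were well above. *Tox* rose by 1.73 with IR (SE 0.37, adjusted p = 0.0362, 3.32-fold higher), and without IR its difference was 0.46 (SE 0.37, 95% interval -0.42 to 1.34, adjusted p = 0.597).

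The third *Tox* probe set also rose with IR, by 1.08 (adjusted p = 0.0807), and the second, at 0.74 (adjusted p = 0.176), did not pass. The call was lost without tumor IR replicate 1 (1.75, adjusted p = 0.171), tumor IR replicate 2 (1.71, adjusted p = 0.208) or LN IR replicate 2 (1.41, adjusted p = 0.102), and with array weights (adjusted p = 0.104). Without tumor no IR replicate 1 the difference without IR was -0.06 (adjusted p = 0.962), the only change of sign of a tumor and LN difference when 1 array was left out.

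**Figure D3:**
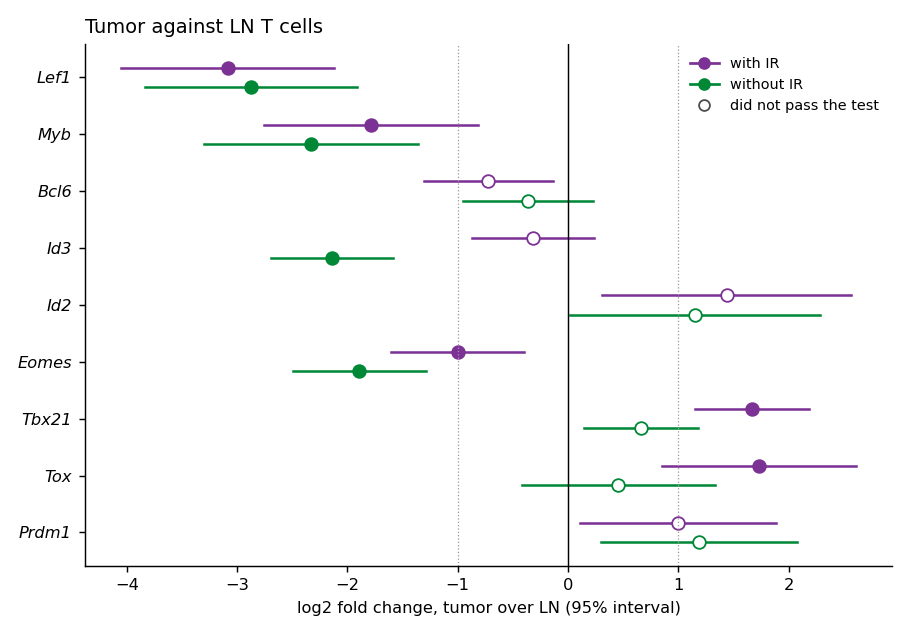
Log2 fold change of tumor over LN T cells for each factor (horizontal axis, lines: 95% interval), with IR in purple and without IR in green; filled points passed the test and dotted lines mark the fold limit. *Lef1* is at -3.09 and -2.87, *Tbx21* at 1.67 and 0.66, and *Id3* at -0.31 and -2.14.

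Averaged over both treatments, tumor T cells were compared with LN T cells on 4 arrays a side. By this comparison 8 of the 9 factors passed, against 6.62% of all genes. *Lef1* (-2.98, SE 0.29), *Myb* (-2.06, SE 0.29), *Eomes* (-1.45, SE 0.18) and *Id3* (-1.23, SE 0.17) fell. *Id2* rose by 1.30 (SE 0.34), *Tbx21* by 1.16 (SE 0.15), *Tox* by 1.09 (SE 0.26) and *Prdm1* by 1.09 (SE 0.27). *Bcl6* had -0.54 (adjusted p = 0.0897), under the fold limit. Adjusted p-values of the 8 lay between 0.000915 for *Lef1* and 0.0470 for *Id2*.

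The rises of *Id2*, *Tox* and *Prdm1* on this average did not hold with every array left out in turn, and 5 factors rather than 8 passed without tumor IR replicate 1, tumor IR replicate 2, tumor no IR replicate 1, LN IR replicate 2 or LN no IR replicate 2. Over these 5 arrays left out, *Id2* lay between 0.93 and 1.41, *Prdm1* between 0.78 and 1.16 and *Tox* between 0.84 and 1.10. Without tumor no IR replicate 2, *Id2* (1.27) and *Prdm1* (1.02) did not pass and *Tox* (1.35) did. With the mean of a gene's probe sets, *Id2* (0.59) and *Tox* (0.82) were under the fold limit, and 6 factors passed. Over all 9 factors the median was -0.54, against -0.02 over all genes.

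Values of other cell types moved with the tissues. Of 17 macrophage and monocyte markers, among them *C1qa*, *C1qb*, *Ms4a7* and *Mrc1*, 13 rose in tumor T cells with IR and 15 without. Their mean level was 8.78 and 10.20 in tumor T cells with IR and 10.10 and 10.88 without, against 6.53 and 6.76 in LN T cells with IR and 6.26 and 6.69 without, and 0 of the 17 lay under the lower quartile in the tumor groups, against 3 in LN with IR and 5 in LN without. Over the 4 tumor arrays that mean had the same order as *Prdm1*, higher in tumor T cells, and as *Eomes*, lower there. Of 12 fibroblast markers, *Col3a1*, *Dcn*, *Col1a2* and *Prrx1* leading, 7 rose with IR and 6 without, with mean levels of 8.65 and 8.64 in tumor T cells with IR and 8.35 and 8.19 without, against 6.19 and 6.18 in LN T cells with IR and 6.27 and 6.46 without. The brightest gene of this list was *Thy1*, which T cells also express. Its mean was 11.42 in tumor T cells with IR and 12.03 without, against 10.43 in LN T cells with IR and 11.84 without. The mean levels of the fibroblast list therefore include a gene of T cells.

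Of 7 NK cell markers 4 rose in tumor T cells with IR and 3 without, among them the receptor genes *Klre1*, *Klrb1b* and *Klrk1*, which CD8+ T cells also express. Their mean was 9.10 and 9.24 in tumor T cells with IR and 8.68 and 9.06 without, against 7.63 and 7.62 in LN T cells with IR and 7.46 and 8.13 without. Of 13 B cell markers, 4 fell in tumor T cells with IR and 5 without, among them *Pou2af1*, whose values on all 4 tumor arrays lay under the lower quartile, with means of 6.35 to 6.55 in the tumor groups and 7.34 to 8.05 in the LN groups. B cells are known to express *Bcl6* and *Lef1* at some stages, NK cells *Eomes*, *Tbx21* and *Id2*, and macrophages *Id2* and *Prdm1*. The part of these cells in the differences above was not tested, and in bulk RNA fewer cells of a type and less RNA per cell cannot be told apart. Smaller numbers passed in the other lists: of 8 plasma cell markers 1 rose and 1 fell with IR, of 9 dendritic cell markers 1 fell in each comparison, of 10 CD4 and regulatory T cell markers 1 fell with IR and 1 rose without, and of 12 epithelial markers 2 rose in each. The plasma cell marker that rose, *Xbp1*, and the dendritic cell marker that fell, *Ccr7*, are also given below among genes of T cells. For 10 endothelial markers limma called 0 in both, with 2 at an unadjusted p under 0.05 with IR and 1 without. The 13 measured T cell identity genes had 0 calls by limma in both comparisons, with 4 at an unadjusted p under 0.05 in each.

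IR was then compared with no IR within each tissue. In tumor T cells 0 of the 9 factors passed by limma, against 0.0989% of all genes, and 1, *Id3*, had an unadjusted p under 0.05, against 16.6%. The fit took a single spread per gene over all 4 groups, and the LN arrays were the less reproducible ones. With array weights the count of all genes passing went from 18 to 200 in tumor T cells and from 191 to 69 in LN T cells. With only the 4 arrays compared it was 173 in tumor T cells and 0 in LN T cells. *Id3* was the factor whose tumor arrays with IR, at 7.62 and 7.66, did not overlap those without, at 6.97 and 6.91. Its difference was 0.70 (SE 0.23, 95% interval 0.15 to 1.25, adjusted p = 0.298). The SD of *Id3* was 0.033 in tumor T cells with IR and 0.040 without. The SE also takes in the LN arrays, with an SD of 0.52 without IR. Over the 22 alternatives its difference stayed between 0.67 and 0.89, under the fold limit, so only the alternative without that limit could have called it. The other 8 differences ran from -0.16 (*Prdm1*) to 0.45 (*Tox*), and the widest interval, that of *Id2*, was -1.22 to 1.04. Groups that do not overlap were common, at 67.4% of all genes in this comparison. Of the 17 macrophage markers 16 had a value below 0 for IR in tumor T cells (median -1.18), with 0 called by limma and 9 at an unadjusted p under 0.05, and their part in these differences was not tested.

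In LN T cells 1 factor passed, against 1.05% of all genes, 0.264% lower, and 3 had an unadjusted p under 0.05, against 14.3%. *Tbx21* fell by 1.12 after IR (SE 0.22, adjusted p = 0.0971, 2.17-fold lower), with 8.96 and 8.40 in LN T cells with IR against 9.90 and 9.70 without. That p lies close to the limit, and the call was kept in 7 of 22 alternatives. It was lost without any array but LN IR replicate 1, with adjusted p-values of 0.131 (-0.84) without LN IR replicate 2, 0.274 (-1.02) without LN no IR replicate 1, 0.248 (-1.22) without LN no IR replicate 2, 0.215 without either tumor IR array and 0.240 without either tumor no IR array, the value staying at -1.12 in these last. Without LN IR replicate 1 it was -1.40 (adjusted p = 0.00890).

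The differences of *Id3*, *Eomes* and *Tox* had the same sign but did not pass. For these and *Tbx21* the LN arrays with IR lay below those without, as for 19.5% of all genes; groups that do not overlap either way made up 41.3%. *Id3* had -1.13 (SE 0.23, adjusted p = 0.108), *Eomes* -1.02 (SE 0.26, adjusted p = 0.163) and *Tox* -0.83 (SE 0.37, adjusted p = 0.365). The second *Eomes* probe set did pass, falling by 1.19 (adjusted p = 0.0987). Without LN IR replicate 1 *Id3* (-1.19, adjusted p = 0.0346), *Eomes* (-1.19, adjusted p = 0.0375) and *Id2* (-1.10, adjusted p = 0.0795) passed as well, so that 4 factors did, and the count of all genes went to 1789, against 191 with all arrays. *Id3* also passed without LN no IR replicate 1 (-1.50, adjusted p = 0.0576).

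*Lef1*, at 0.35 (95% interval -0.62 to 1.31), *Myb*, at -0.51 (-1.48 to 0.46), and *Prdm1*, at 0.03 (-0.86 to 0.92), had groups that overlapped in LN T cells. *Bcl6* was the factor with LN arrays with IR above those without, at a difference of 0.43 (adjusted p = 0.466), and its second probe set had -0.67. The median over the 9 factors was 0.03 in tumor T cells and -0.51 in LN T cells, against 0.09 and 0.01 over all genes.

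**Figure D4:**
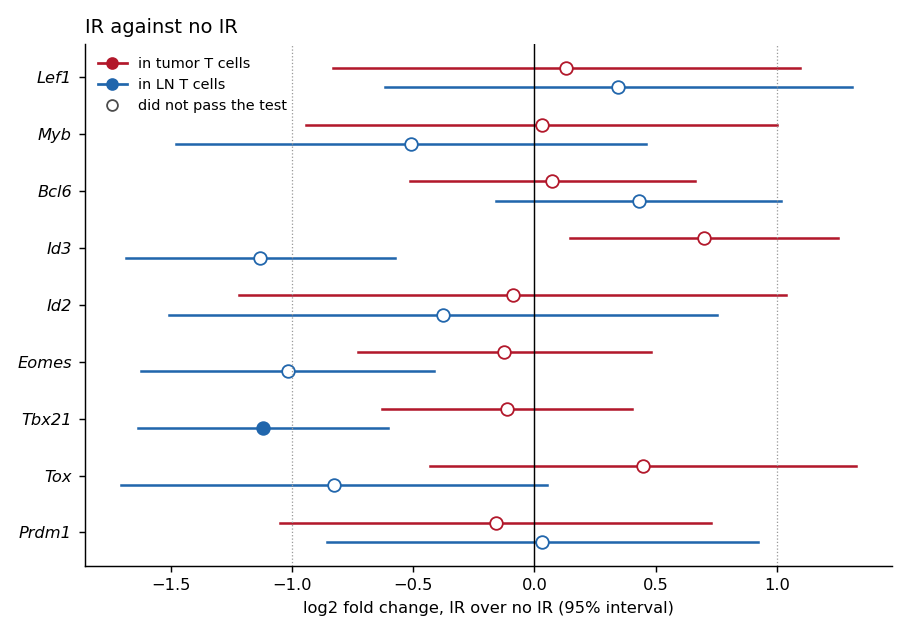
Log2 fold change of IR over no IR for each factor (horizontal axis, lines: 95% interval) in tumor T cells (red) and in LN T cells (blue); the filled point passed the test and dotted lines mark the fold limit. *Id3* lies at 0.70 in tumor and -1.13 in LN T cells, and *Tbx21*, the filled point, at -1.12 in LN T cells.

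Whether IR acted differently in the 2 tissues was tested by the difference between the differences. By limma 0 of the 9 factors and 0 of all genes (0%) passed, while 4 factors had an unadjusted p under 0.05, against 5.63% of all genes. *Id3* had 1.83 (SE 0.33, unadjusted p = 0.000842, adjusted p = 0.591) and stood at place 15 of 18193 genes from the highest. *Tox* had 1.27 (SE 0.53), *Tbx21* 1.01 (SE 0.31) and *Eomes* 0.89 (SE 0.36), with adjusted p-values of 0.758 to 0.782. Without LN IR replicate 1, *Id3* (1.89, adjusted p = 0.0605) and *Tbx21* (1.29, adjusted p = 0.0580) passed, among 770 genes that did. The mean IR effect over both tissues passed for 0 factors by limma, against 0.764% of all genes, with *Eomes* (-0.57, adjusted p = 0.154) and *Tbx21* (-0.62, adjusted p = 0.113) at an unadjusted p under 0.05, against 24% of all genes.

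The genes around these factors were described by lists. Of 14 other factors of naive and memory T cells, 4 fell and 1 rose in tumor T cells with IR, and 1 fell and 1 rose without, with medians of -0.68 and -0.54 over the list against 0.06 and -0.09 over all genes. *Foxo1*, which supports *Il7r* and *Klf2* expression in quiescent T cells, fell by 1.55 with IR and fell by 1.52 without (adjusted p = 0.0133 and 0.0149). Its level was 8.49 and 8.75 in tumor T cells with IR and 8.71 and 9.22 without, against 10.34 and 10.00 in LN T cells with IR and 10.27 and 10.71 without. *Klf2* (-1.53), *Bach2* (-1.28) and *Zeb1* (-1.07) fell with IR, and *Gfi1*, a repressor, rose by 1.09 with IR and 1.14 without.

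Of 13 relatives and cofactors of TCF/LEF factors, 1 fell with IR and 1 rose without. *Satb1*, a chromatin organiser of T cells, fell by 1.79 with IR (adjusted p = 0.0208) and had -0.76 without (adjusted p = 0.288). *Tcf7l2*, a TCF relative, rose by 1.29 without IR (adjusted p = 0.00567) and had 0.68 with IR (adjusted p = 0.0498), under the fold limit. *Ctnnb1*, the gene of β-catenin, had 0.67 with IR and 0.24 without. Among the 5 E protein and other ID genes, limma called 0 in either comparison, with 2 at an unadjusted p under 0.05 with IR and 1 without.

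Of 13 measured relatives of the other factors, *Mga* (-1.30) and *Prdm2* (-1.27) fell in tumor T cells with IR and limma called 0 without, where 3 had an unadjusted p under 0.05. *Mybl1*, a relative of *Myb*, was the gene of this list that passed for IR: it read 6.73 and 6.68 in tumor T cells with IR and 5.31 and 5.63 without, and 6.01 and 6.03 in LN T cells with IR against 5.09 and 4.61 without. The change was 1.17 in LN T cells (adjusted p = 0.0725), a rise, and 1.24 in tumor T cells (adjusted p = 0.199), which did not pass. Its LN values without IR and 1 of the tumor values without IR lay under the lower quartile, so these sizes are not exact. The 8 corepressors of BCL6 and BLIMP1 had 0 calls by limma in both tissue comparisons, with 2 at an unadjusted p under 0.05 with IR and 0 without.

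Of 20 other factors of effector, exhausted and resident T cells, 3 rose and 2 fell with IR and 3 rose and 0 fell without. *Zeb2*, a repressor that acts with T-bet in effector cells, rose by 3.25 with IR and 3.07 without. It read 8.43 and 9.30 in tumor T cells with IR and 9.20 and 9.63 without, against 6.07 and 5.17 in LN T cells with IR and 6.56 and 6.13 without, one of the LN arrays lying under the lower quartile. *Rbpj*, the DNA-binding partner of Notch, rose by 2.42 with IR and by 2.08 without, *Xbp1* by 1.51 with IR and *Nr4a2* by 1.44 without. *Batf* (-1.67) and *Stat4* (-1.28) fell with IR.

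**Figure D5:**
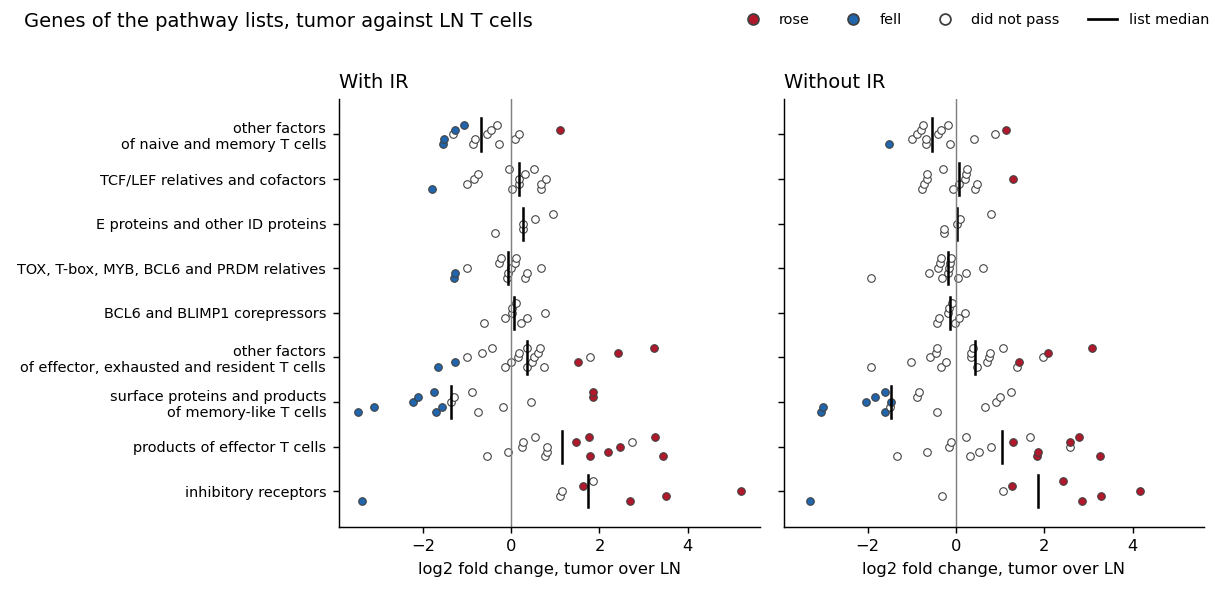
Log2 fold change of tumor over LN T cells (horizontal axis) for each measured gene of 9 lists (vertical axis), with IR on the left and without IR on the right. Red points rose, blue points fell, open points did not pass, and the black bar is the median of the list, at -1.37 with IR and -1.47 without for memory-like surface proteins and products.

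Surface proteins and products that go with these states were also listed. Of 15 genes of memory-like T cells 7 fell and 2 rose in tumor T cells with IR, and 7 fell and 0 rose without. *S1pr1*, the receptor for exit from lymph nodes, fell by 3.47 with IR and fell by 3.06 without. *Slamf6*, a marker of TCF-1-positive cells, read 9.09 and 9.55 in tumor T cells with IR and 9.21 and 9.80 without, against 12.65 and 12.19 in LN T cells with IR and 12.58 and 12.47 without, a difference of -3.10 with IR and -3.02 without. *Cxcr5* (-2.22 and -2.03) and *Ccr7* (-2.10 and -1.83) fell, and the 2 that rose with IR were *Xcl1* (1.85), a chemokine, and *Cd9* (1.85), a tetraspanin.

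Of 16 products of effector T cells 7 rose with IR and 6 without, and 0 fell in either. *Ccl3* rose by 3.44 with IR and 3.27 without, *Cx3cr1* by 3.25 and 2.79, *Gzmb*, the gene of granzyme B, by 2.46 and 1.84, and *Fasl* by 2.18 and 2.59. Of 8 measured inhibitory receptors, 4 rose with IR and 5 without, *Cd244a* by 5.20 and 4.17 and *Entpd1* by 2.70 and 3.29. *Btla* fell (-3.39 and -3.32), reading 7.74 and 7.86 in tumor T cells with IR and 7.62 and 7.78 without, against 11.02 and 11.36 in LN T cells with IR and 11.21 and 10.83 without. Macrophages also express *Ccl3*, *Cx3cr1*, *Entpd1* and *Zeb2*. B cells, whose markers were mostly lower in tumor T cells, also express *Btla*, *Cxcr5*, *Ccr7* and *Bach2*. The part of either cell type in these differences was not tested.

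For each factor, the genes with the most similar pattern were sought by Pearson correlation over the 8 arrays among the 9096 genes whose mean was above the median of all genes. The 8 arrays fall into 2 tissues, so such values mostly follow the difference between them and are a description. *Lef1* was most like *Gpr18* (r = 0.996), *Il7r* (0.994) and *Irf9* (0.993). *Il7r*, the interleukin 7 receptor gene, read 10.97 and 11.13 in tumor T cells with IR and 10.85 and 11.29 without, against 12.57 and 13.02 in LN T cells with IR and 12.38 and 12.69 without.

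*Eomes* was most like *Dtx1* (r = 0.984), an E3 ligase gene of the Notch pathway, *Tspyl3* (0.984) and *Agk* (0.982). *Dtx1* shared its order of groups, with 6.01 and 5.71 in tumor T cells with IR and 6.10 and 6.37 without, against 8.32 and 7.47 in LN T cells with IR and 10.06 and 10.61 without. *Id3* was most like *Prdx3* (0.989), *Myb* like *Tesc* (0.993), *Tbx21* like *Rreb1* (0.990), *Tox* like *Tmem128* (0.963) and *Bcl6* like *Gramd1b* (0.940).

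*Acvr1*, a receptor of the activin and BMP family, headed the list of both *Id2* (r = 0.996) and *Prdm1* (0.984). It read 8.83 and 9.24 in tumor T cells with IR and 8.97 and 9.19 without, against 8.22 and 6.51 in LN T cells with IR and 8.09 and 7.32 without, with the same low LN IR replicate 2. Among the factors themselves, *Id2* and *Prdm1* correlated at 0.970, *Id3* and *Eomes* at 0.917 and *Lef1* and *Myb* at 0.853, while *Lef1* and *Id2* correlated at -0.874. *Eomes* and *Tbx21* correlated at -0.444.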

How the data were processed

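Gene expression was measured on 8 Affymetrix mouse expression arrays, 2 for each of 4 groups. The authors normalised the scans with RMA (background correction, quantile normalisation and summary of each probe set, of unstated version) and deposited log2 values of 45101 probe sets, which were used as deposited. Scans were not analysed here. Quantile normalisation gives all arrays nearly 1 distribution, so values are relative to the bulk of genes.

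GEO's platform annotation names 1 gene for 34945 probe sets and several for 932, and no member was named through a probe set with several. limma 3.58.1 in R 4.3.3 fitted 4 group means by least squares, with 7 contrasts, empirical Bayes moderation (4 residual and 3.13 prior degrees of freedom) and Benjamini-Hochberg adjustment over 35877 annotated probe sets. The study's methods fitted limma robustly and intersected it with SAM; the robust fit is an alternative and SAM was not run. SD, where given, is over 2 arrays, and the number of arrays limits the precision.

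The fit was tested on simulated arrays of the comparison of tumor with LN without IR (35877 probe sets): of 50 probe sets given a log2 change of 1, 36% were called, of those given 2, 96%, and of those given 3, 100%, and 11.8% of the calls were unchanged probe sets. A change of 1 equals the fold limit, so estimates just under it are not called with any number of arrays. The simulated spread of a probe set was the same in all groups, while the LN arrays differed more between replicates.

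The members, the 19 lists (213 of 232 listed genes measured, written for this work) and the tests were chosen with earlier results of these data known. Named besides the members are up to 4 called genes of each list with the largest change per comparison, some further members of the lists, chosen after their values were seen (*Ctnnb1*), checks of sort and IR, and the 3 genes most correlated with each member. Promoters are from RefSeq (GRCm38.p6): of the 9 measured members 7 have a window within 20 bases of the annotated start. Alternatives were the robust fit, only the arrays compared, array weights, a mean-variance trend, a replicate block, all probe sets, other limits, other probe set rules, no dim genes, scaling to the T cell identity list, cyclic loess, and leaving out each array. Dropping the fold limit can only add calls. For *Id3*, *Tbx21* and *Prdm1*, with 1 probe set each, taking the most variable probe set gives the reported fit. Same-numbered arrays deviated from their group means together within a tissue (correlations of 0.431 for tumor and 0.430 for LN) but not across tissues (-0.137 with IR, 0.069 without), so numbers were not taken as pairs. A block within each tissue was not fitted, so the comparisons of IR with no IR do not use the deviation shared there.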

Additional observations from a re-analysis of the deposited data

How the results depend on the processing

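No called difference of a factor changed sign under any of the 22 alternatives. For IR in tumor 0 factors passed in each of them, and the difference of *Id3*, at most 0.89, stayed under the fold limit. Without IR (4 factors as reported), tumor against LN called 5 with the robust fit, only the 4 arrays and cyclic loess, and 6 with array weights and scaling to T cell identity genes. With IR (5 as reported) it called 6 with the robust fit, cyclic loess and that scaling, and 4 with only the 4 arrays, at an adjusted p under 0.05 and with the mean of probe sets. Of the factors, 1 passed for IR in LN: the robust fit called 3, the mean of a gene's probe sets 3 and leaving out the dimmer genes 2, while only the 4 arrays compared, array weights, a mean-variance trend, the replicate block, all probe sets, an adjusted p under 0.05, cyclic loess and scaling to T cell identity genes called 0. For the tissue difference in the IR effect the robust fit called 1 (0 as reported), and array weights called 3 factors for tumor against LN with IR (5 as reported). The cause was not tested.

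Of all genes, IR in tumor called 177 with the robust fit, 173 with only the 4 arrays, 200 with array weights and 10 at an adjusted p under 0.05 (18 as reported). IR in LN called 504, 0, 69 and 100 in the same order, and 331 when scaled to T cell identity genes (191 as reported). The tissue difference called 18 with the robust fit and 1 with the trend (0 as reported), and the mean IR effect 257 when scaled (139 as reported). Without a fold limit, which can only add calls, tumor against LN called 2352 with IR (1237), 1514 without (1008) and 3586 on the mean (1205), and the mean IR effect 672. Without the genes below the median level, so with fewer genes tested, tumor against LN called 632 without IR and 794 on the mean.

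Scaling to T cell identity genes moved the median of all genes by 0.14 (tumor against LN with IR), 0.25 (without), 0.19 (mean), 0.19 (IR in tumor), 0.31 (IR in LN), 0.25 (mean IR) and -0.11 (tissue difference). The share of higher calls became 82.6% (70.6% as reported) with IR, 90.6% (81.2%) without, 94% (74.9%) for IR in LN and 94.6% (74.1%) for mean IR. Other settings lowered it: for IR in LN to 49.4% with the robust fit and 25.1% without LN IR replicate 1, for IR in tumor (94.4% as reported) to 58.2% with the robust fit, 60.7% with only the 4 arrays and 52% with array weights, and for mean IR to 62.1% with the robust fit, 46.3% without a fold limit and 35.8% without LN IR replicate 1.

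With the replicate number as a block, 5 factors passed with IR, 4 without, 8 on the mean and 0 in each IR comparison; *Tbx21* in LN had an adjusted p of 0.123, and no other factor's reported call was lost. Crossing the numbers between the tissues, an alternative chosen after seeing the data, gave 6, 5, 8 and, for IR in LN, 1.

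Leaving out 1 array gave 2 to 6 factors for tumor against LN with IR, 5 to 8 on the mean, 0 to 4 for IR in LN and 0 to 2 for the tissue difference, and 568 to 2412 genes with IR, 540 to 1181 without, 0 to 90 for IR in tumor, 67 to 1789 for IR in LN, 0 to 770 for the tissue difference and 48 to 475 for mean IR. The highest counts with IR, for IR in LN, the tissue difference and mean IR came without LN IR replicate 1.

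Differences that were not called changed sign as follows. With the mean of probe sets, IR in tumor gave *Id2* 0.015 and *Lef1* -0.33, IR in LN *Bcl6* -0.12 and *Id2* 0.077, the tissue difference *Bcl6* 0.16 and *Id2* -0.062, and mean IR *Bcl6* -0.038 and *Id2* 0.046. With the most variable probe set, *Lef1* had -0.78 in tumor and -0.22 on mean IR, and *Bcl6* -0.67 in LN, 0.68 for the tissue difference and -0.33 on mean IR. Cyclic loess gave *Id2* 0.0043 in tumor and *Prdm1* 0.052 on mean IR. Scaling gave, in tumor, *Eomes* 0.067, *Id2* 0.10, *Prdm1* 0.033 and *Tbx21* 0.080, and on mean IR *Id2* 0.017, *Id3* 0.035, *Myb* 0.010, *Prdm1* 0.19 and *Tox* 0.061. Leaving out 1 array, *Tox* ranged from -0.061 to 0.98 for tumor against LN without IR. For IR in tumor the ranges were *Bcl6* -0.16 to 0.30, *Eomes* -0.28 to 0.033, *Id2* -0.32 to 0.14, *Lef1* -0.28 to 0.54, *Myb* -0.23 to 0.29, *Tbx21* -0.26 to 0.037 and *Tox* -0.070 to 0.97. For IR in LN they were *Id2* -1.10 to 0.35, *Lef1* -0.19 to 0.88 and *Prdm1* -0.58 to 0.65. For the tissue difference they were *Id2* -0.44 to 1.01, *Lef1* -0.75 to 0.32 and *Prdm1* -0.81 to 0.42. For mean IR they were *Id2* -0.60 to 0.13, *Lef1* -0.028 to 0.50, *Myb* -0.49 to 0.013, *Prdm1* -0.37 to 0.24 and *Tox* -0.45 to 0.070. Of simulated probe sets given a log2 change of 1, which equals the fold limit, 36% were called.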
